A study of Homo sapiens with 4 samples.

Results

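The array named 746 antisense RNAs with a symbol made of a gene name followed by -AS and a number, carried by 797 of its 53617 gene-level probe sets, which the array maker calls transcript clusters. They were found by that name alone, among the 25937 clusters with 1 gene symbol (24305 symbols), so no measured value chose them. Of the 746, 722 had a row for the gene they are named after, called the partner here, and 24 had none. A RefSeq table matched 687 of the 746, and 664 of these are listed there as long non-coding RNAs. Of the 687, 46 now carry the ending -DT, for divergent transcript, and 11 led to a protein-coding gene, so these 11 were given no position relative to the partner.

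An antisense RNA is transcribed from the strand opposite to another gene. Some start close to the partner's start and run away from it, so that both RNAs leave the same promoter region, while others start far off and run across the partner's body or end. Single antisense RNAs have been described as acting on the partner's chromatin, splicing, stability or translation, while for most no role has been described, so many of the names below say where an RNA lies and not what it does.

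The study grew MDA-MB-231, an established human line of triple-negative breast carcinoma, for 3 days in control or treated medium. Both media shared 1 recipe, 9 parts of hypotonic saline to 1 part of concentrated DMEM. In the treated medium the saline had been under the dc DEP EMF of a BEFE unit for 30 min beforehand, and in the control medium it had not. The 4 samples are 4 groups of 1, control and treated at gene level and at exon level, and both levels summarise the same hybridisations. The labels speak of 5 biological replicates per group, but each medium has 1 column of values, and whether that is 1 array, a pool or an average is not stated. No difference below therefore has a replicate check, an error or a p-value, and no test between the media was possible. Every value is an RMA log2 signal, and every difference is treated minus control on the log2 scale.

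The median signal over all gene-level probe sets was 6.33 in control and 6.31 in treated medium. Of 6 genes known to be expressed in this line, all 6 were above the floor defined below, with vimentin (VIM) at 11.04 and 11.02. Of 5 luminal or basal genes known to be low in it, EPCAM was above the floor at 7.70 and 7.26 and the other 4 were under it. Markers of leukocytes (PTPRC), red blood cells (HBB) and fibroblasts (LUM) lay between 3.81 and 4.75, under the floor in both media. The kits named in the labels make whole-transcript targets, but the labels do not state how strand was kept, so signal from an antisense RNA and from the overlapping part of its partner cannot be fully told apart.

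The sequences below are promoter windows from RefSeq, build GRCh38.p14, 250 bases before to 50 after the annotated start, 5' to 3' on the RNA's own strand. They belong to 4 antisense RNAs with the highest differences that had a motif match, and to the pair of TMPO-AS1 with TMPO and PCNA-AS1, which had the lowest. Capitals mark every match, on either strand, to 6 short motifs: CCAAT (the box bound by NF-Y), TTTGAA (cell cycle homology region), TTTGGCGC, TTTGCCGC, TTTCGCGC or TTTCCCGC (E2F site), TGATGNAA (amino acid response element core), TGACNNNGC (antioxidant response element core) and ACGTG (hypoxia response element core). The windows are, in order, chr18:3603487-3603786 on the plus strand, chr1:239719070-239719369 on the minus strand, chr18:3593864-3594163 on the plus strand, chr11:8964425-8964724 on the plus strand, chr12:98516177-98516476 on the minus strand, chr12:98515323-98515622 on the plus strand and chr20:5119336-5119635 on the plus strand.
DLGAP1-AS2: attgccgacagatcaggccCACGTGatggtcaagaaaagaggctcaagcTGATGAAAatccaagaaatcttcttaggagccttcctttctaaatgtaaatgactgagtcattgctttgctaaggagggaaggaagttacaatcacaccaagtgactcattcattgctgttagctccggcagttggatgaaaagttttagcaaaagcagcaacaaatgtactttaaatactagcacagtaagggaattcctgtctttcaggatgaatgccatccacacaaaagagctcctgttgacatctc
CHRM3-AS2: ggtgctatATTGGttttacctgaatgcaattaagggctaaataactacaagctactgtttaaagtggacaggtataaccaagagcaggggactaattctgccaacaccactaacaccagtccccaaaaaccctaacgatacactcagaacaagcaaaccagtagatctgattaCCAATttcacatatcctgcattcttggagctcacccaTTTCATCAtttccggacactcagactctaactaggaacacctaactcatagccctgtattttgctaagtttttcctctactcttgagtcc
DLGAP1-AS1: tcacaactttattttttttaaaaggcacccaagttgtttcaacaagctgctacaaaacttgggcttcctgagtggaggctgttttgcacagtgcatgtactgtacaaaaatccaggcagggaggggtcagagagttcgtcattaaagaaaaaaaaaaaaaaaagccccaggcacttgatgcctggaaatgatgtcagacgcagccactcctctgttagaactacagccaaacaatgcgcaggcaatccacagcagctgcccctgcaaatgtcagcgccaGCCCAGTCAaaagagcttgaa
TMEM9B-AS1: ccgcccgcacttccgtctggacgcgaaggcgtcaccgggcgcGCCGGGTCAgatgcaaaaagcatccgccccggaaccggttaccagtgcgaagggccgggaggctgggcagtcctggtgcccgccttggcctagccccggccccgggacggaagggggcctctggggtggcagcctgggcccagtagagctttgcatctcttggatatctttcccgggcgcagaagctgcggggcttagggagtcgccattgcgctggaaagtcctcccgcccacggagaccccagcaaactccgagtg
TMPO-AS1: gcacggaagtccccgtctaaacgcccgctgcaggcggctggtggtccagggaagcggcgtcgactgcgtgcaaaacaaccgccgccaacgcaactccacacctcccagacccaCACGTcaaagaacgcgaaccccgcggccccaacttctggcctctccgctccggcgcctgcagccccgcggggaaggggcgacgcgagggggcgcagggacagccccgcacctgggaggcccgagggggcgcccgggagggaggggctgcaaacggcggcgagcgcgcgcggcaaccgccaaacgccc
TMPO: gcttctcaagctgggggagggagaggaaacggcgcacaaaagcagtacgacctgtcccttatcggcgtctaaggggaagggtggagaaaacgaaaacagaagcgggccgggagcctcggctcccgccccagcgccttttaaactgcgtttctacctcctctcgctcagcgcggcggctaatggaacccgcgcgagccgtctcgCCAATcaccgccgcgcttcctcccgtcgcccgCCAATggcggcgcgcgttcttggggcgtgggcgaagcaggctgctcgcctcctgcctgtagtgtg
PCNA-AS1: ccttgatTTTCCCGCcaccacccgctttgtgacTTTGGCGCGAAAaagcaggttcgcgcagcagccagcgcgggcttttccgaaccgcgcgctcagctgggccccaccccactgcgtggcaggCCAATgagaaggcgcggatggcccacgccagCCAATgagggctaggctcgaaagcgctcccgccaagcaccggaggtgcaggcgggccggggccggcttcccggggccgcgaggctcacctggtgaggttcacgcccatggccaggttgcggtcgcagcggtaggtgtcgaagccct

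DLGAP1-AS2 holds the amino acid response core as TGATGAAA, 201 bases before its start, and the palindrome CACGTG around 230 bases before it, which holds the hypoxia core on both strands. CHRM3-AS2 holds the amino acid core on the other strand, read here as TTTCATCA, 40 bases before its start, and a CCAAT on each strand. DLGAP1-AS1 and TMEM9B-AS1 each hold the antioxidant core on the opposite strand, GCCCAGTCA and GCCGGGTCA. TMPO-AS1 holds CACGT, TMPO holds CCAAT at 2 places, and PCNA-AS1 holds CCAAT at 2 places and 3 E2F matches, of which 1 pair overlaps.

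Among all 27305 promoter windows of this length, 3.67% held TGATGNAA, 13.6% TGACNNNGC, 21.6% ACGTG, 35.7% CCAAT, 15.4% TTTGAA and 3.33% one of the E2F letters. Of the antisense RNAs above the floor, 100 had a window, among them 8 past 2-fold. The amino acid core was held by 3 of the 100 (DLGAP1-AS2, CHRM3-AS2 and C1QTNF9B-AS1), 2 of them past 2-fold. The antioxidant core was held by 19, the hypoxia core by 27 and CCAAT by 32, each with 2 past 2-fold. The cell cycle homology region was held by 5 and an E2F match by 3 (PCNA-AS1, NR2F1-AS1 and ALDH1L1-AS1), with 0 past 2-fold. A match is a run of letters and was not shown to be a bound site.

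A symbol counted as measured when its mean signal over both media reached 7.17, which is where the middle of all singly named probe sets lies, and it was represented by its brightest cluster. This floor was passed by 127 of the 746 antisense RNAs (17.0%), by 59 of 405 intergenic LINC RNAs (14.6%), by 412 of the 638 distinct partner genes (64.6%) and by 12353 of all 24305 symbols (50.8%). Most antisense RNAs were thus too dim to count as measured. For a bulk sample, fewer expressing cells and less RNA per cell cannot be told apart.

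Treated medium had a signal at least 2-fold above control for 8 of the 127 measured antisense RNAs and at least 2-fold below it for 1. The same held for 3.22% and 3.46% of all measured symbols, 6.69% either way, against 6.30% and 0.787% of the antisense RNAs. Antisense signals lie low in the range, so symbols between the floor and the 90th percentile of the antisense signal are the nearer background, with 3.32% higher and 2.75% lower. In that range lay 114 antisense RNAs, and all 9 past 2-fold were among them.

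Their median difference was 0.05 (quartiles -0.14 and 0.37, range -1.50 to 2.27), beside a median of -0.01 over all measured symbols (quartiles -0.26 and 0.25). Above 0 were 78 antisense RNAs (61.4%), where 49.2% of all measured symbols were above 0. The spread was close, with an SD across symbols of 0.513 for the antisense RNAs and 0.543 for all symbols, and 98 of 127 (77.2%) stayed within 1.5-fold, as did 80.8% of all. For the 59 measured LINC RNAs the median was also 0.05, with 1 at least 2-fold higher and 2 lower. These shares describe 1 column per medium, and whether the antisense RNAs differ from the background was not tested.

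**Figure D1:**
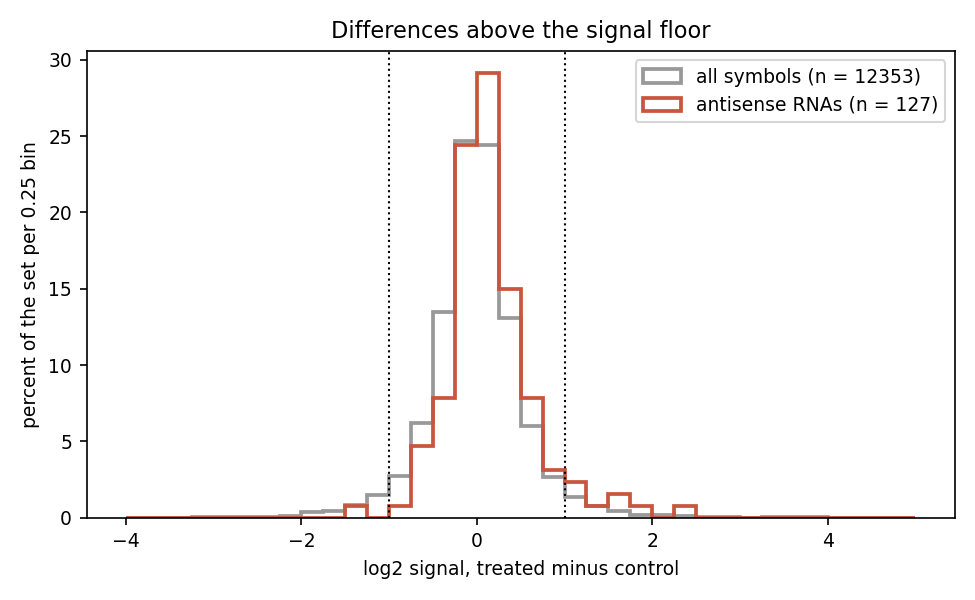
Distribution of the log2 difference, treated minus control (horizontal axis), for the 127 measured antisense RNAs and for all 12353 measured symbols, as a percentage of each set (vertical axis). The antisense RNAs have 8 members past 2-fold on the higher side and 1 on the lower side, with medians of 0.05 and -0.01 for antisense RNAs and all symbols.

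The signal of DLGAP1-AS2 was 7.03 in control and 9.30 in treated medium, 4.82-fold higher, the largest difference among the 127. DLGAP1-AS1, another antisense RNA of the same gene, had 8.08 and 9.61, 2.88-fold higher. Both were well above their control signal, while DLGAP1 itself, which encodes a scaffold of the postsynaptic density, was under the floor at 6.81 and 6.28. The start of DLGAP1-AS2 lies 271023 bases from the annotated start of DLGAP1 in RefSeq.

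CHRM3-AS2 had 6.48 in control and 8.29 in treated medium, 3.51-fold higher. CHRM3, the M3 muscarinic acetylcholine receptor, had 7.19 and 7.25, a difference of 0.05, and its start lies 332551 bases away. The antisense RNA thus stood apart between the media where the receptor's own cluster, close to the floor of 7.17, did not.

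HIF1A-AS2 had 6.73 in control and 8.38 in treated medium, 3.12-fold higher. It runs across the 3' end of HIF1A, the oxygen-regulated subunit of the hypoxia-inducible factor, whose signal was 12.59 and 12.78, a difference of 0.19. A dimmer cluster of the same antisense symbol had a difference of 0.91, on the same side and short of 2-fold. HIF1A-AS1, at the other end of the gene, was under the floor with a difference of 0.35.

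TMEM9B-AS1 had 7.48 and 8.87, 2.62-fold higher, and starts 272 bases from TMEM9B, a lysosomal membrane protein, with a difference of 0.10. KCTD21-AS1 had 6.99 and 8.19, 2.31-fold higher, beside 0.41 for KCTD21, an adaptor of cullin ubiquitin ligases. KCTD21-AS1 starts 167 bases from ALG8, a glucosyltransferase of N-glycan assembly, which differed by -0.29. In neither promoter region did the gene on the other strand move with the antisense RNA by 2-fold.

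TMEM44-AS1 had 7.33 and 8.40, 2.10-fold higher, beside 0.17 for TMEM44. NPPA-AS1 had 7.24 and 8.26, 2.02-fold higher, and NPPA, the atrial natriuretic peptide precursor, was under the floor at 6.29 and 6.67. These 2 lie closest to the threshold.

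For 4 of the 8 higher antisense RNAs the control signal was itself under the floor. Measured from the floor instead of from their control signal, DLGAP1-AS2 was 4.38-fold, HIF1A-AS2 2.31-fold, CHRM3-AS2 2.18-fold and KCTD21-AS1 2.03-fold higher.

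TMPO-AS1 was the 1 antisense RNA at least 2-fold lower, with 9.10 in control and 7.61 in treated medium, 2.83-fold. Its partner TMPO encodes lamina-associated polypeptide 2, a protein of the inner nuclear membrane and nuclear interior, and had 10.37 and 8.79, a difference of -1.57. The 2 start 653 bases apart, with the antisense start inside TMPO. Both RNAs of this locus were lower by close to the same amount.

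Just short of 2-fold, OSER1-AS1 had 7.26 and 8.15 (0.89), GABPB1-AS1 7.66 and 8.54 (0.88), PCNA-AS1 8.16 and 7.33 (-0.83) and TLR8-AS1 8.59 and 9.41 (0.82). OSER1 encodes an oxidative-stress-responsive serine-rich protein, GABPB1 a subunit of an ETS-family transcription factor, and TLR8 an endosomal sensor of RNA. Their partners' differences were 0.76, -0.11, -2.05 and 0.38, so OSER1 was near its antisense RNA and GABPB1 was not. TLR8 itself was under the floor, at 4.54 and 4.92.

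Other higher antisense RNAs past 1.5-fold included BCDIN3D-AS1 (0.76), LIPE-AS1 (0.71), TPT1-AS1 (0.70), DHRS4-AS1 (0.68), ZMIZ1-AS1 (0.68), LMLN-AS1 (0.65), PITPNA-AS1 (0.60) and KTN1-AS1 (0.60). On the lower side past 1.5-fold were SGOL1-AS1 (7.97 and 7.27), ATP6V0E2-AS1 (8.46 and 7.79), UBL7-AS1 (8.98 and 8.35), LPP-AS2 (8.78 and 8.17), SERTAD4-AS1 (8.14 and 7.54) and FEZF1-AS1 (7.71 and 7.12), with differences from -0.70 to -0.59. The lower side was short: SOX21-AS1 and FRMD6-AS1, next in order, were both at -0.33.

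**Figure D2:**
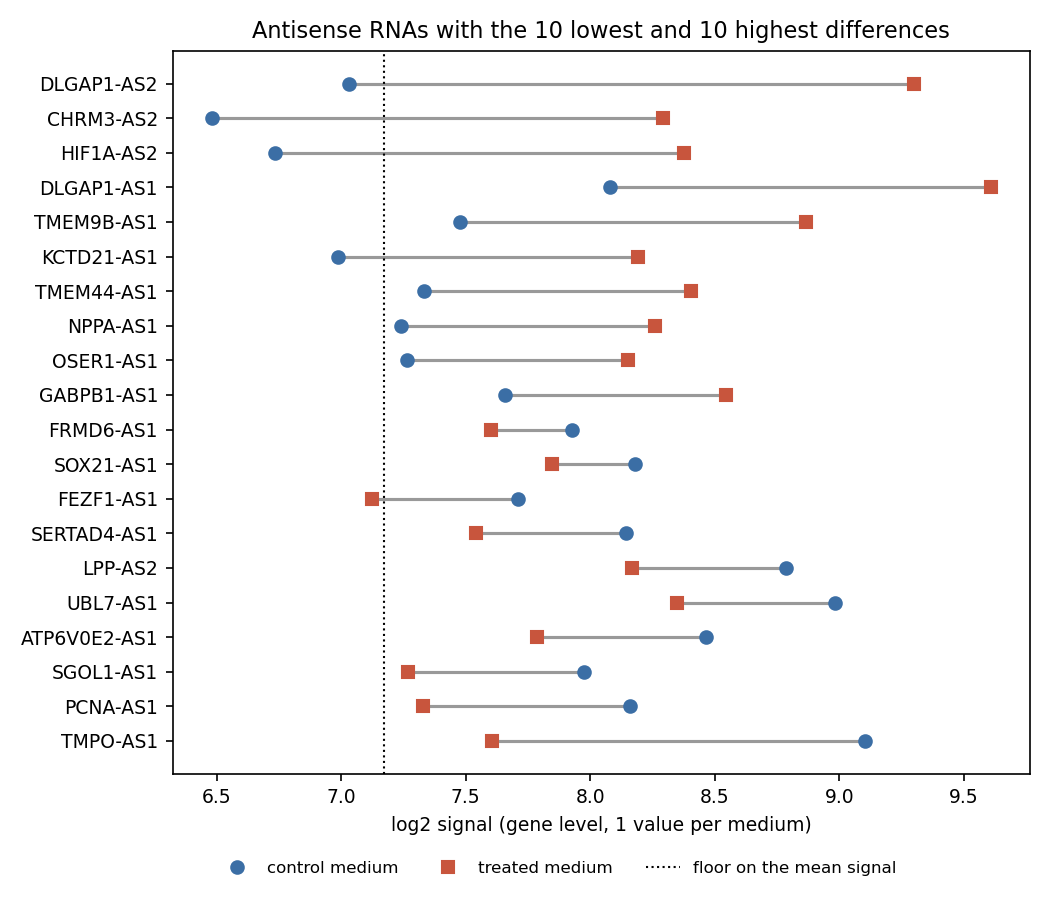
Log2 signal (horizontal axis) of the antisense RNAs with the 10 highest and 10 lowest differences, with a circle for control and a square for treated medium, 1 value each, and a dotted line at the floor of 7.17 on the mean signal. The gaps run from DLGAP1-AS2, 7.03 and 9.30, to TMPO-AS1, 9.10 and 7.61.

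The exon-level table splits each cluster into smaller probe sets from the same hybridisation, which shows whether a difference is carried by the whole RNA or by a few probes. The 9 antisense RNAs past 2-fold had 43 exon-level probe sets, and 42 lay on the side of the gene-level value. These 9 were picked by that gene-level value, so the shared side describes them and is no separate support. Both probe sets of DLGAP1-AS2 were higher, by 1.99 and 2.32, and the 3 of HIF1A-AS2 ranged from 1.40 to 1.70. The 7 of CHRM3-AS2 ranged more widely, from 0.61 to 3.10, with 5 past 2-fold.

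The 6 probe sets of DLGAP1-AS1 ranged from 0.68 to 1.66, the 5 of TMEM9B-AS1 from 0.59 to 1.92, the 9 of KCTD21-AS1 from 0.44 to 1.77, the 3 of TMEM44-AS1 from 0.89 to 1.38 and the 4 of NPPA-AS1 from 0.85 to 1.15. All of these were on the higher side. TMPO-AS1 was the exception, with -2.24, -1.28 and -1.18 at 3 probe sets and 0.88 at the other. Of the 95 measured antisense RNAs with at least 3 exon-level probe sets, 26 had every one on the side of the gene-level value. Another 14, among them PCNA-AS1, LPP-AS2 and FRMD6-AS1, had only 1, so no spread within the RNA could be seen.

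Some smaller gene-level differences hid a split. SGOL1-AS1 had -1.84, -1.02, -0.15 and -0.06 at its 4 probe sets. OIP5-AS1, a conserved RNA also called cyrano, had 5 probe sets above 0 and 6 below, from -0.66 to 1.97, behind a gene-level difference of -0.17. The 5 of PRC1-AS1 ranged from -0.52 to 1.14. The 18 of ZMIZ1-AS1 ranged from -0.74 to 3.49, with 7 at least 2-fold higher, behind a gene-level difference of 0.68.

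**Figure D3:**
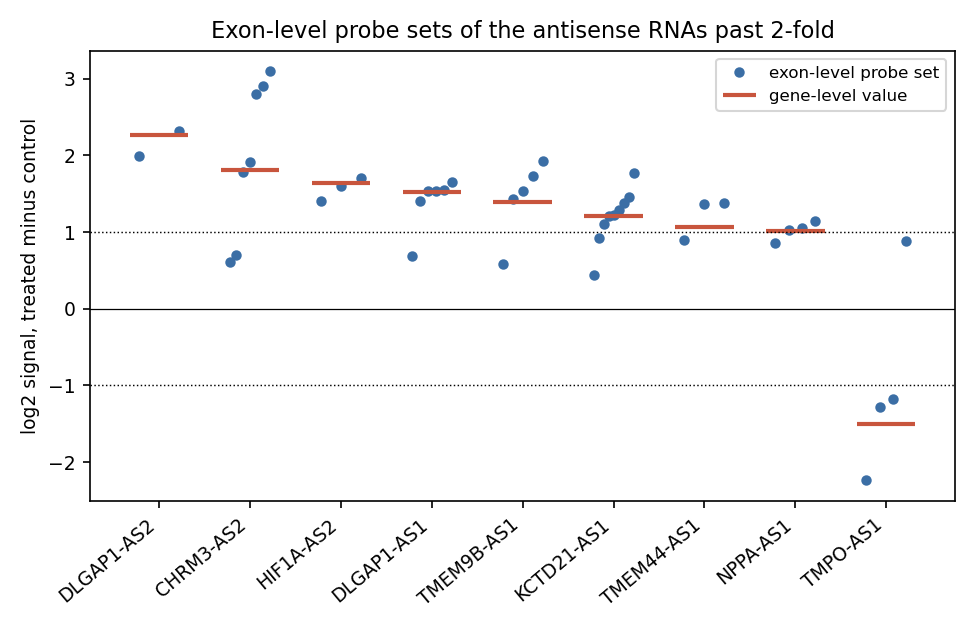
Log2 difference, treated minus control (vertical axis), of each exon-level probe set (points) and of the gene-level cluster (horizontal bar) for the 9 antisense RNAs past 2-fold, named on the horizontal axis. The points of CHRM3-AS2 spread from 0.61 to 3.10, and 1 of the 4 points of TMPO-AS1, at 0.88, lies across 0 from the others.

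Under the floor lay 619 antisense RNAs, with a median difference of 0.01 and an SD across RNAs of 0.286. At least 2-fold higher were 4 of them, FBXL19-AS1 (1.28), EPB41L4A-AS1 (1.11), ACVR2B-AS1 (1.08) and WEE2-AS1 (1.05), beside 0.853% of all symbols under the floor. At least 2-fold lower were 3, PTPRG-AS1 (-1.33), DGUOK-AS1 (-1.14) and PRKG1-AS1 (-1.01), beside 0.628% of all symbols under the floor. PTPRG-AS1 had 7.68 in control and 6.35 in treated medium, and 15 of its 16 exon-level probe sets were below 0, 10 of them past 2-fold. Its partner PTPRG, a receptor tyrosine phosphatase, differed by 0.48, on the other side. Over all 746 with no floor, 12 were higher and 4 lower by 2-fold, beside 2.06% and 2.07% of all symbols.

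Antisense RNA and partner were both measured in 99 pairs, and both values of a pair come from the same 2 columns. In 63 pairs (63.6%) the 2 lay on the same side of 0, 39 with both above and 24 with both below. In 36 they lay on opposite sides, 21 with the antisense RNA above and the partner below and 15 the other way. Counted one by one, 60 of the antisense RNAs and 54 of the partners were above 0. Across the 99 pairs Pearson's r was 0.41 and Spearman's rho 0.36, a description over pairs that share the same arrays. Without the 8 pairs whose partner passed 2-fold, r was 0.26 over 91 pairs, of which 58 lay on the same side.

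TMPO was the 1 pair with both past 2-fold on the same side. After it, the pairs that differed most on the same side were PCNA-AS1 (-0.83, partner -2.05), OSER1-AS1 (0.89, partner 0.76), SGOL1-AS1 (-0.70, partner -1.70), LMLN-AS1 (0.65, partner 0.73), SERTAD4-AS1 (-0.60, partner -1.94), FEZF1-AS1 (-0.59, partner -0.61) and MAFG-AS1 (0.51, partner 0.70). Each pair in this group with the partner past 2-fold had the smaller difference in the antisense RNA. This follows from the grouping, since only TMPO had both past 2-fold on the same side.

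In 12 pairs (12.1%) the 2 differences were at least 2-fold apart. The share was 12.0% in 656 pairs of other symbols, a background that holds head-to-head pairs only. In CHRM3, HIF1A and TMEM9B the antisense RNA was higher and the partner near 0. In PRC1, OIP5, SERTAD4, RAB30 and PCNA the partner had the lower difference. NR2F1-AS1 (0.30) lay beside NR2F1 (-0.99), an orphan nuclear receptor, LIPE-AS1 (0.71) beside LIPE (-0.40), hormone-sensitive lipase, and TPT1-AS1 (0.70) beside TPT1 (-0.32).

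**Figure D4:**
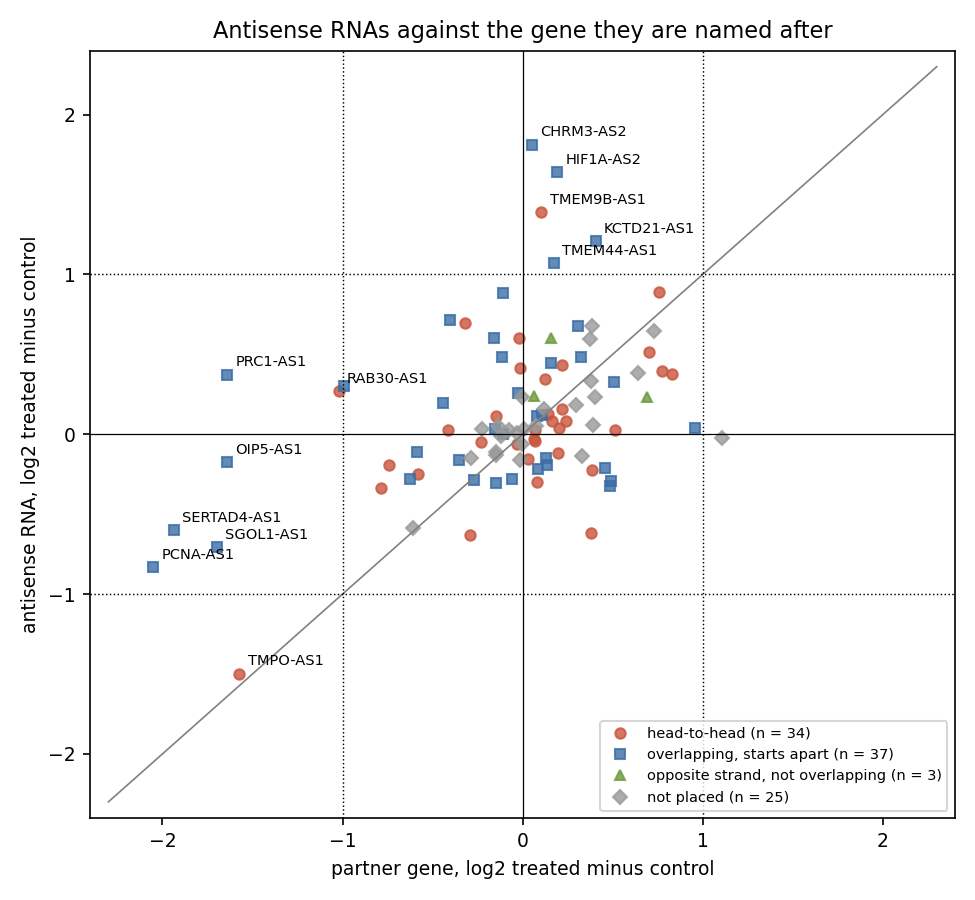
Log2 difference, treated minus control, of the antisense RNA (vertical axis) against that of its partner (horizontal axis) for the 99 pairs with both above the floor, marked by arrangement in RefSeq, with dotted lines at 2-fold and a diagonal of equal change. TMPO-AS1 lies near the diagonal at -1.50 and -1.57, CHRM3-AS2 and HIF1A-AS2 lie high near a partner difference of 0, and PCNA-AS1 lies at -0.83 against -2.05.

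By RefSeq positions, 156 antisense RNAs were head-to-head with the partner, on opposite strands with starts within 1000 bases, and 38 of them (24.4%) were measured. Another 274 overlapped the partner with starts farther apart, of which 48 (17.5%) were measured, 15 lay on the opposite strand without overlap, of which 5 were measured, and 277 could not be placed, of which 32 were measured. Of the 8 higher antisense RNAs, 6 overlapped a partner whose start was farther off, 1 (TMEM9B-AS1) was head-to-head and 1 (NPPA-AS1) was not placed. TMPO-AS1 was head-to-head.

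The head-to-head pairs with both measured numbered 34. In 21 (61.8%) the 2 lay on the same side of 0, 3 (8.82%) were at least 2-fold apart, r was 0.51 and rho 0.37. TMPO, far from 0 in both RNAs, is among these 34, and r without it was not computed. The background is 656 other head-to-head pairs on the array with both measured. In these, 55.5% lay on the same side, 12.0% were at least 2-fold apart and 0.762% were both past 2-fold on the same side. Their r was 0.20 and their rho 0.16. The difference between these values was not tested. Where the antisense start lay upstream of the partner's, 15 of 23 pairs were on the same side, and where it lay inside the partner, 6 of 11.

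Among the 37 measured pairs that overlap with starts farther apart, 21 (56.8%) lay on the same side, 8 (21.6%) were at least 2-fold apart, and r was 0.38. No background set of other overlapping pairs was counted. The 25 pairs that could not be placed had 18 (72.0%) on the same side. A further 15 measured antisense RNAs were head-to-head with a gene other than the one in their name. In this group 8 of 15 were on the same side and r was 0.08, with PXN-AS1 (-0.28) beside RPLP0 (-1.03), a protein of the ribosomal stalk, as the 1 neighbour past 2-fold.

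Past 2-fold were 28 of the 412 measured partners, 16 on the lower and 12 on the higher side. That is 6.80% of the partners, close to the 6.69% of all measured symbols. By side it is 3.88% lower and 2.91% higher, beside 3.46% and 3.22% of all. The 16 lower partners have 17 antisense RNAs, of which 13 were below 0 and 4 above, with a median of -0.20. Without a floor, 51.5% of all symbols were below 0. Measured among the 17 were 7, with a median of -0.60 beside -1.64 for their partners, and 5 of these 7 were below 0.

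Some of the lower partners were measured together with their antisense RNA. PCNA, the sliding clamp of DNA replication, had 11.80 in control and 9.75 in treated medium. SGOL1, shugoshin, which protects cohesion at centromeres, had 11.11 and 9.41, and OIP5, which helps load the centromeric histone CENP-A, had 9.36 and 7.72. Their antisense RNAs were lower by less, at -0.83, -0.70 and -0.17.

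PRC1, which bundles microtubules of the central spindle, had 11.79 and 10.15, and PRC1-AS1 had 7.27 and 7.64, on the other side. RAB30, a small GTPase of the Golgi, had 8.27 and 7.25, and RAB30-AS1, which starts 169 bases upstream, had 8.30 and 8.57. GTSE1 (-1.83), a microtubule-binding protein of mitosis, had an antisense RNA under the floor, at -0.32. A lower partner was thus found with antisense RNAs on both sides of 0.

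The 12 partners at least 2-fold higher each have 1 antisense RNA, of which 8 were above 0, 3 below and 1 at 0, with a median of 0.20. Without a floor, 47.3% of all symbols were above 0. All but 1 of the 12 antisense RNAs were under the floor. SLC7A11, the cystine and glutamate exchanger, had 11.56 and 13.03, and SLC7A11-AS1 differed by 0.38. UNC5B (2.64), a netrin receptor, CYP1B1 (2.21), a cytochrome P450, and IL20RB (1.98), a cytokine receptor subunit, had antisense RNAs at 0.00, 0.88 and -0.10. CARS (1.36), the cysteine tRNA synthetase, and ITPR1 (1.25), a calcium release channel, had antisense RNAs at 0.29 and 0.21, so that none of these followed its partner past 2-fold.

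**Figure D5:**
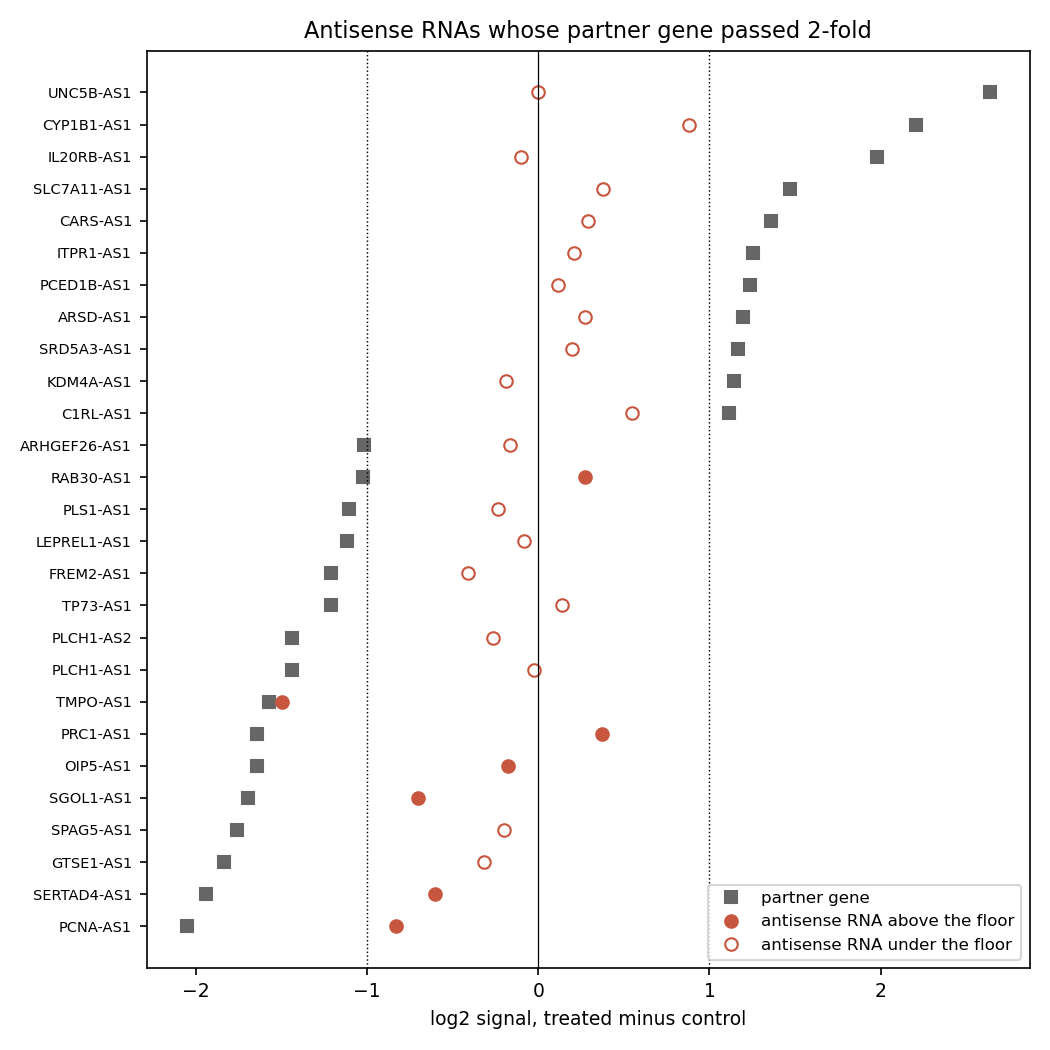
Log2 difference, treated minus control (horizontal axis), of each partner gene past 2-fold (squares) and of its antisense RNA (circles, filled above the floor and open under it), 1 line per antisense RNA reported here. TMPO-AS1 at -1.50 is the 1 antisense RNA past 2-fold on its partner's side, and PRC1-AS1 (0.37) and RAB30-AS1 (0.27) lie across 0 from theirs.

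Lists of partners were drawn up by symbol, mostly by its first letters, so they follow the role of a gene only roughly. The cell cycle list leaves out SGOL1 and GTSE1, and the transcription factor list takes in MYCBP2 through its first letters. On the list of cell cycle, replication, repair and chromatin genes, antisense RNAs were measured for 8 of 20, with a median of -0.20. They ranged from TMPO-AS1 (-1.50) to PRC1-AS1 (0.37), with none at least 2-fold higher and 1 lower. Of their partners 17 of 20 were measured, 1 at least 2-fold higher and 5 lower, beside 3.22% and 3.46% of all measured symbols. PCNA, PRC1, TMPO and OIP5, all lower, are named singly in this list, which was chosen with earlier results of these data known. The contrast with all symbols is therefore no test of the group. Antisense RNAs of transcription factors outside the homeobox family were measured for 10 of 44, with a median of 0.15, a range from FEZF1-AS1 (-0.59) to HIF1A-AS2 (1.64) and 1 at least 2-fold higher. Of their 33 partners 24 were measured, with a median of 0.20 and 1 at least 2-fold lower. MAFG-AS1 (0.51) belongs here with MAFG (0.70), a small MAF protein that pairs with NRF2, and ZBTB11-AS1 (0.38) with ZBTB11 (0.83).

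Homeobox genes have antisense RNAs along the HOX clusters, and 2 of 20 were measured, HOXC-AS2 (0.07) and HOXC-AS5 (-0.14). For transport and channel genes 4 of 30 were measured, from ATP6V0E2-AS1 (-0.68) to TRPC7-AS1 (0.36), none past 2-fold. In a list of signalling genes taken by the start of the symbol, which leaves out CHRM3, TLR8 and other receptors, 3 of 36 were measured, ARHGAP5-AS1 (0.04), GAS6-AS1 (0.05) and MAP3K14-AS1 (0.19). The 596 antisense RNAs in no list had 100 measured, 7 at least 2-fold higher (beside 6.30% of all 127) and none lower, so the lists cover few of the measured antisense RNAs.

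Of 39 antisense RNAs listed because they have been described in cancer or development, 33 were on the array under that name and 16 were measured. Their median was -0.06, with 1 past 2-fold in each direction (6.25% each), beside 3.22% higher and 3.46% lower of all measured symbols. AFAP1-AS1, reported at high levels in several carcinomas, had 12.34 in control and 12.37 in treated medium. VIM-AS1 had 9.37 and 9.63, and SBF2-AS1 and TTN-AS1 differed by 0.48 and 0.45. LOXL1-AS1 and FOXD2-AS1 both differed by -0.19. Outside the list, bright clusters with little difference at gene level were FGD5-AS1 (10.64 and 10.43), MMP24-AS1 (10.41 and 10.45), C17orf76-AS1 (10.21 and 10.37) and FLG-AS1 (10.05 in both). At exon level the 9 probe sets of FGD5-AS1 ranged from -0.37 to 1.00 and the 3 of MMP24-AS1 from -0.02 to 0.10. The 19 of C17orf76-AS1 ranged from -0.75 to 1.48 and the 14 of FLG-AS1 from -0.82 to 0.41. Under the floor lay CDKN2B-AS1 (0.05), also called ANRIL, ZEB1-AS1 (0.32), DLX6-AS1 (-0.72) and PTPRG-AS1 (-1.33), whose exon-level probe sets are given above. Most of the described antisense RNAs were thus close to equal in both media or too dim to read.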

How the data were processed

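The deposited gene-level and exon-level tables hold log2 signal, which the authors normalized by RMA using the Expression Console program of Affymetrix, per the submitters' processing notes. Software versions and genome build: not given in the sources used here. Because RMA gives all arrays 1 distribution of probe signals, it hides any shift common to most genes. Gene symbols came from the authors' deposited table, whose control over treated ratio equalled the gene-level log2 difference within 9.85e-05 over 53617 probe sets.

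Antisense RNAs were matched by name, positions came from a RefSeq table of GRCh38.p14 (687 of 746 matched, 413 of them through accessions, 239 through symbols and 35 through older symbols), and each symbol was represented by its brightest cluster. Exon-level probe sets were tied to clusters by the order of their IDs. This was checked on the values: 13644 of 13645 clusters with a single exon-level probe set equalled it within 0.001. For the 26802 clusters with 3 or more, gene-level values were set against exon-level medians. There r was 0.98 for the control signal and 0.83 for the difference. Differences were treated minus control, called at 2-fold above a floor at the 50th percentile. The rule for named genes took, above the floor, the antisense RNAs past and just short of 2-fold, the 10 highest and 10 lowest differences, the 8 highest signals, the pairs with the 10 largest gaps, the 8 pairs furthest from 0 on 1 side, described RNAs and the extremes of each list. Other genes were named after their values were seen, and some are not reported here. Members and lists were chosen with earlier results of these data known. Precision is limited by the number of hybridisations, and with 1 sample per group there was no test. Python 3.11.15, pandas 2.3.3 and numpy 2.4.6 were used. Alternatives changed the floor, the scaling, the choice of cluster, the level and the pairing rule.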

Additional observations from a re-analysis of the deposited data

How the results depend on the processing

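All 9 antisense RNAs past 2-fold kept that call under quantile normalization, median centring, counting every cluster, and the median of exon-level probe sets. Counting every cluster keeps the brightest one, so no call could be lost there. The exon-level probe sets come from the same hybridisations as the gene-level value that picked the 9, so their median is no independent check. The deposited medians were already 6.33 and 6.31, so both scalings had little room to move a call. Where a known opposite strand was required, NPPA-AS1 dropped out, since it was not placed, and the other 8 stayed. The floor mattered most. Raised to the 75th percentile, the floor left 14 antisense RNAs, with 0 higher, 0 lower, and, of 4 pairs, 0 on the same side, 0 past 2-fold together and 0 at least 2-fold apart. Lowered to the 25th percentile, it gave 4 lower and 11 higher, and 209 of 358 pairs (58.4%) lay on the same side and 30 (8.38%) were at least 2-fold apart. With no floor 4 were lower and 12 higher. Across the settings other than the floor, the share of pairs on the same side ran from 60.8% of 74 pairs, where a known opposite strand was required, to 66.7% of 99 under quantile normalization. No paired analysis was possible because each medium has 1 column of values. Dim signal limits 619 of the 746 antisense RNAs.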

Other observations

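Of the 746 antisense symbols, 26 had several transcript clusters, 77 in all. TRIM31-AS1 had 8 clusters with differences from -0.17 to 0.01, MDC1-AS1 had 7 from -0.58 to -0.16, and DDX39B-AS1 had 7 from -0.40 to -0.39. IL10RB-AS1 had clusters from -0.42 to 0.60, TAPT1-AS1 from 0.28 to 1.04 and SRGAP2-AS1 from -0.41 to 0.27, so for such symbols the choice of cluster sets the value. HIF1A-AS2 had clusters at 0.91 and 1.64, so its call past 2-fold rests on the brighter cluster.

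Of the 46 antisense RNAs that RefSeq now names as divergent transcripts, 11 were measured, 8 of them above 0, and none passed 2-fold. They ranged from UBL7-AS1 (-0.63) to OSER1-AS1 (0.89), with a median of 0.09. Of all measured symbols, 49.2% were above 0 and 6.69% past 2-fold either way. Of the 127 measured antisense RNAs, 61.4% were above 0 and 7.09% past 2-fold. With 11 RNAs, the lack of any past 2-fold cannot be set apart from these shares.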
